A study of Homo sapiens with 6 samples.

Results

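The genes described here encode the enzymes that bring pyruvate into mitochondria and turn it through the tricarboxylic acid (TCA) cycle. The list has 37 genes, taken from the 20610 rows of the count table by exact gene symbol: 2 of pyruvate import, 5 of the pyruvate dehydrogenase complex, 4 of its kinases, 3 of its phosphatases, 18 of the cycle with its cytosolic counterparts, and 5 that feed or drain it. All 37 symbols were present. IDH3B and PCK1 lie on chromosome 20, whose genes are nearly without counts in this table, and are not analysed here.

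The libraries were made from bead-captured mRNA of HT1080, a fibrosarcoma cell line of human origin. Of them 3 are labelled PGK1 knockout (KO) and 3 PGK1 wild type (WT). PGK1, the phosphoglycerate kinase that makes ATP in lower glycolysis, was disrupted with CRISPR-Cas9 in the KO cells. The labels name no guide, no clone, no treatment of the WT cells and no culture for each library, so the loss of PGK1 and other differences between the cell populations cannot be told apart. With no separate cultures named, a p-value here reflects how far libraries of a group differ, and that spread may be technical.

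Pyruvate made in the cytosol crosses the inner mitochondrial membrane through a carrier of 2 proteins, MPC1 and MPC2. The pyruvate dehydrogenase complex then converts it to acetyl-CoA. Kinases (PDK) switch the complex off by phosphorylating its E1 alpha subunit, and phosphatases (PDP) switch it on again. Acetyl-CoA joins oxaloacetate to form citrate, and the cycle oxidises it while feeding electrons to the respiratory chain, partly through succinate dehydrogenase. Pyruvate carboxylase refills the cycle, and malic enzymes and phosphoenolpyruvate carboxykinase draw carbon from it. HT1080 cells are known to carry a mutant allele of IDH1 whose enzyme makes 2-hydroxyglutarate. Counts per gene do not separate alleles.

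Library totals ran from 30175903 to 47047186 counts. Levels are in CPM, counts scaled to the library total with TMM factors, and a value with ± is the mean with its SD (n = 3 libraries). PGK1 had 149, 151 and 165 CPM in the KO libraries, against 1447, 1427 and 1407 CPM in the WT libraries, so its level in KO was 10.9% of that in WT. Of the mesenchymal markers, VIM, FN1 and CD44 were abundant in both groups. The others were low: PDGFRB averaged 1.16 CPM in KO and 9.27 CPM in WT. NT5E, COL1A1, COL1A2, S100A4 and THY1 averaged at most 1.84 CPM in either group. The summed level of the 9 mesenchymal markers was 3344 to 3958 CPM in KO and 12693 to 13204 CPM in WT. That sum rests almost wholly on VIM, FN1 and CD44. EPCAM was at 0 in all libraries. Of the epithelial markers, KRT8 averaged 78.0 CPM in KO and 179 CPM in WT, a fall, and KRT18 averaged 117 CPM in KO and 121 CPM in WT and did not pass the test. CDH1 and ESRP1 averaged 0.964 and 2.63 CPM in KO against 0.0489 and 0.0367 CPM in WT, both rises. The 6 epithelial markers summed to 178 to 222 CPM in KO and 294 to 309 CPM in WT, the 5 blood markers to 108 to 126 CPM in KO and 348 to 363 CPM in WT, and the 4 endothelial markers to 2.36 to 3.57 CPM in KO and 10.2 to 12.2 CPM in WT. The part of these marker differences in the results below was not tested.

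Most of the genes differed between KO and WT, and 9 of the 10 with large differences fell, DLAT being the rise. Of 36 genes that passed the filter on low counts, 12 rose, 19 fell and 5 missed the threshold, an adjusted p of 0.05 (edgeR quasi-likelihood test, adjusted over 13249 genes). Among all tested genes 76.4% were called, 40.0% higher and 36.3% lower. The median log2 fold change was -0.21 for these genes and 0.05 for all tested genes. Changes of at least 1 on the log2 scale were called for 10 genes, against 31.0% of all tested genes. Of these 9 were falls and 1 a rise, where such falls and such rises each made up 15.5% of all tested genes. The KO and WT libraries did not overlap for 33 of the 36, against 79.2% of all tested genes. PDK4 was the gene left out by the filter.

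**Figure D1:**
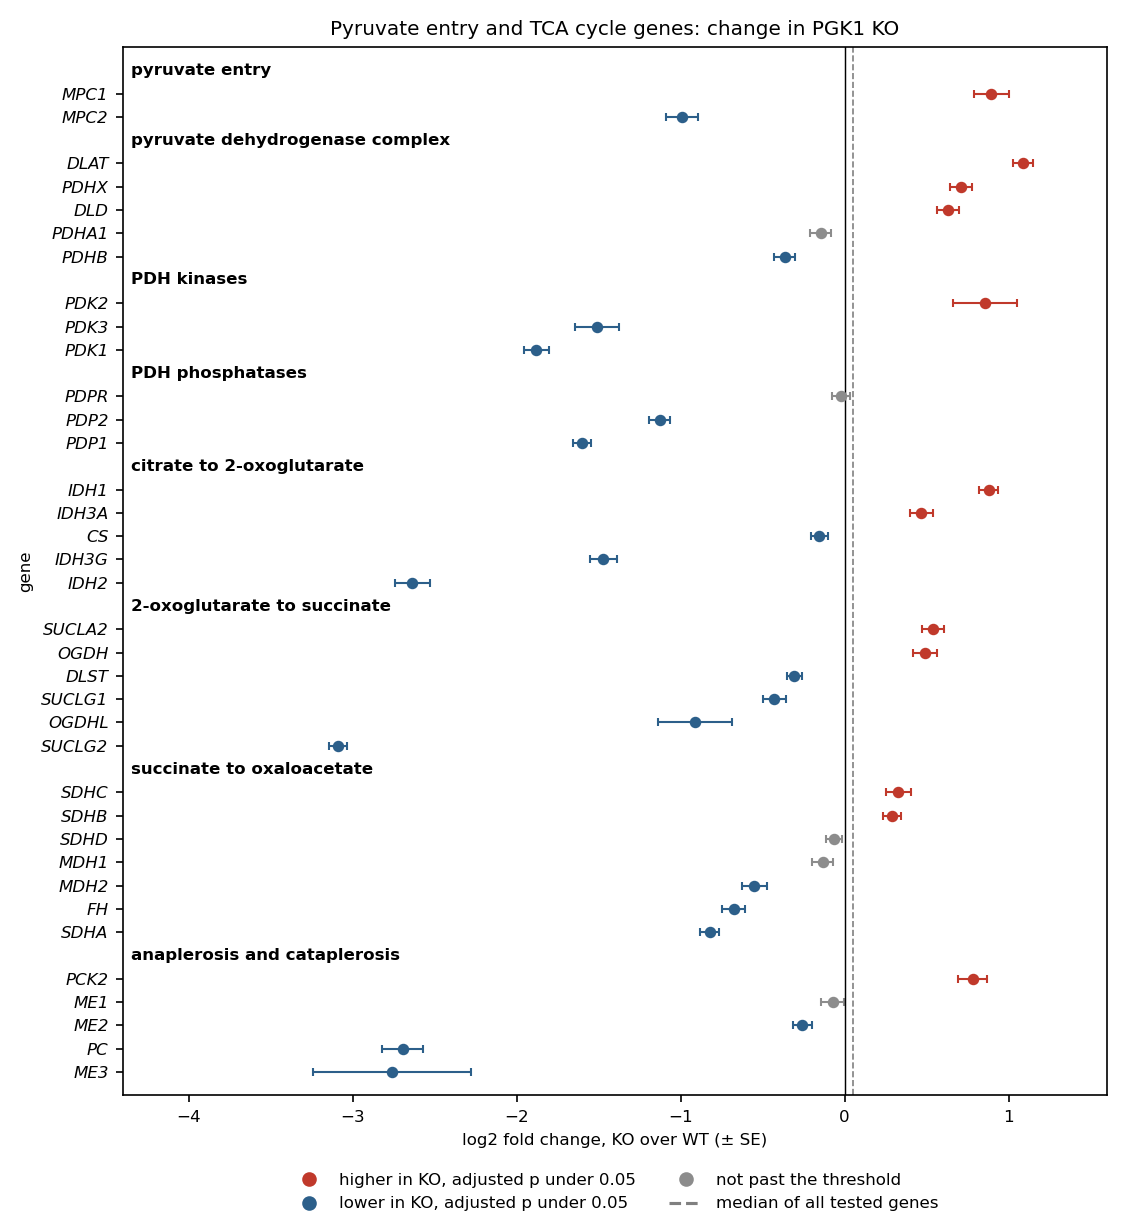
Log2 fold change, KO over WT, with its standard error for the 36 tested genes, ordered by role. Points right of 0 are higher in KO, and the dashed line is the median of all tested genes (0.05). SUCLG2, ME3, PC and IDH2 lie farthest to the left, with values from -3.09 to -2.64, while DLAT, at 1.09, lies farthest to the right.

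The split by direction depends on how libraries are scaled. With library size alone in place of TMM, log2 fold changes shift up, by 0.22 at the median. Then 14 of the genes were higher and 16 lower, and their median was 0.02 against 0.28 for all tested genes. Of all genes called, 63.6% were then higher, against 52.4% with TMM. In all, 28 genes, 12 higher and 16 lower, kept their direction and their call in every alternative that could be computed. The 8 others were PDHA1, PDPR, CS, DLST, SDHD, MDH1, ME1 and ME2, all with small changes.

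Shown here are stretches of DNA upstream of an annotated start of 4 genes that changed, and between 2 pairs of genes discussed further on. They are in lower case, 5′ to 3′ along the strand of the named gene. They come from RefSeq (GRCh38.p14) and hold only bases outside annotated exons. SUCLG2, PC and IDH2 are shown as falls among the largest, and MPC1 as a rise. MDH2 and SDHA are shown because each starts close to a neighbour that runs the other way. Capitals mark the core letters of hypoxia-inducible factor sites, ACGTG or GCGTG, on either strand.
SUCLG2: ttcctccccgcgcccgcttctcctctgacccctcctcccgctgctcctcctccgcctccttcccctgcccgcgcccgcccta
PC: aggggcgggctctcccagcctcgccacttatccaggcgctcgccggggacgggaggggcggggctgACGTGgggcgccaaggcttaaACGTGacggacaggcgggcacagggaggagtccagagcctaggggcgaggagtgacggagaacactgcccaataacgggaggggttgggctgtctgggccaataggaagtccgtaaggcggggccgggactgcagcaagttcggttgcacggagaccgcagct
IDH2: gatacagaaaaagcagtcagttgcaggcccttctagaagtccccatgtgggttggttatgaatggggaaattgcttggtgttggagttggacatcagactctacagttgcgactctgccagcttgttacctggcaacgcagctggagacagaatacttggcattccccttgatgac
MPC1: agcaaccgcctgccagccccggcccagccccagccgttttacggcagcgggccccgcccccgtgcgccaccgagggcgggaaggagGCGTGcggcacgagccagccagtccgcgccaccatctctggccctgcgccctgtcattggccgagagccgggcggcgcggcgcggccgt
MDH2: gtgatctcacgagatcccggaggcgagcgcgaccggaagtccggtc
SDHA: gtcccccactgcagccccgctcgac
The SUCLG2 stretch lies at chr3:67654615-67654696 on the minus strand and the PC stretch at chr11:66958384-66958633 on the minus strand. IDH2 is shown at chr15:90100696-90100871 and MPC1 at chr6:166383014-166383188, both on the minus strand. The IDH2 stretch lies inside the gene (chr15:90083045-90102468), before an inner annotated start. No sequence before the outer start of IDH2 was available. The MDH2 stretch is chr7:76048005-76048050 and the SDHA stretch chr5:218216-218240, both on the plus strand.

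RefSeq held promoter sequence for 34 of the 37 genes, in 49 windows because some genes have several starts. The core ACGTG or GCGTG, on either strand, occurred in the 250 bases before the start in 27 of the 49 windows (55.1%), against 43.2% of 35116 windows of all genes. Among genes with a promoter entry it was found for 8 of 10 that rose, for 13 of 18 that fell and for 3 of 5 that were not called. A gene counts here if any of its windows holds the core. No such share per gene was computed over all genes, so these counts cannot be set against the 43.2% of windows. ACGTG alone was in 28.6% of the windows of these genes and 18.5% of all windows. Other motifs searched on both strands were also more frequent than in all windows: CCAAT was in 51.0% of the windows of these genes against 11240 of the 35116 windows of all genes, and the NRF1 site in 12.2% against 5.07%. The ATF4 element TGATGNAA was in 0 of the 49 windows and in 3.14% of all. The PC stretch holds 2 matches and the SUCLG2 and IDH2 stretches none. Windows of the other PC starts hold no match. The IDH2 window of 250 bases, before an inner start of the gene, does hold GCGTG, on the other strand and outside the stretch shown. The outer IDH2 start was not searched. Such short letters occur often, and a match is a description of the sequence only.

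The subunits of the mitochondrial pyruvate carrier moved in opposite directions. MPC1 (chr6:166364919-166382940, minus strand) had 17.8, 14.6 and 16.1 CPM in the KO libraries and 8.62, 8.69 and 8.80 CPM in the WT libraries. All KO values lay above all WT values (log2 fold change 0.90, SE 0.105, adjusted p = 1.86e-06). MPC2 (chr1:167916675-167937072, minus strand) had 15.7, 12.1 and 13.9 CPM in KO against 29.2, 27.2 and 26.9 CPM in WT. Every KO library lay below every WT library (log2 fold change -0.99, SE 0.0963, adjusted p = 2.21e-07). The carrier works as a pair of these proteins. The ratio of MPC1 to MPC2 in FPKM, the authors' value scaled by gene length and library total, does not depend on scaling between libraries. It was 1.20, 1.28 and 1.23 in KO and 0.313, 0.339 and 0.347 in WT.

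Within the pyruvate dehydrogenase complex the E2 core, E3 and the E3-binding protein rose, whereas neither E1 subunit was called higher. DLAT, the E2 acetyltransferase that carries the lipoyl arm, had 81.5, 78.0 and 83.6 CPM in KO and 39.3, 36.6 and 38.6 CPM in WT. This was the largest rise of all 36 genes, 2.12-fold (log2 1.09, SE 0.0604, adjusted p = 4.03e-10). DLD, the E3 dehydrogenase shared with the 2-oxoglutarate complex, averaged 99.0 ± 7.94 CPM in KO and 63.9 ± 3.82 CPM in WT (log2 0.63, SE 0.0679). PDHX, which anchors E3 to the core, averaged 46.9 ± 2.23 CPM in KO and 28.7 ± 1.24 CPM in WT (log2 0.71, SE 0.0689). Neither group of libraries overlapped the other for any of these genes.

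The E1 subunits behaved differently. PDHB, the E1 beta subunit, fell to 43.8 ± 1.79 CPM in KO, against 56.5 ± 1.63 CPM in WT (log2 -0.37, SE 0.0618, adjusted p = 7.47e-05). PDHA1, the E1 alpha subunit that the kinases phosphorylate, had 63.4, 54.6 and 60.0 CPM in KO and 65.2, 64.9 and 67.0 CPM in WT, just missing the threshold (log2 -0.15, SE 0.0644, adjusted p = 0.0515). It was called lower without KO library 1 (log2 -0.21, adjusted p = 0.0198) or KO library 3 (log2 -0.20, adjusted p = 0.00358). It was also called lower with RLE scaling (adjusted p = 0.0293), with no filter (adjusted p = 0.0398) and by DESeq2 (adjusted p = 0.0374). With library size alone its sign turned (log2 0.08). As a share of the FPKM summed over the 5 genes of the complex, DLAT made up 18.03%, 18.3% and 18.5% in KO and 10.5%, 9.72% and 10.3% in WT. PDHB made up 25.9%, 25.4% and 24.3% in KO and 39.6%, 37.6% and 37.5% in WT. The KO share was higher for DLAT and lower for PDHB, and the groups did not overlap in either share.

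**Figure D2:**
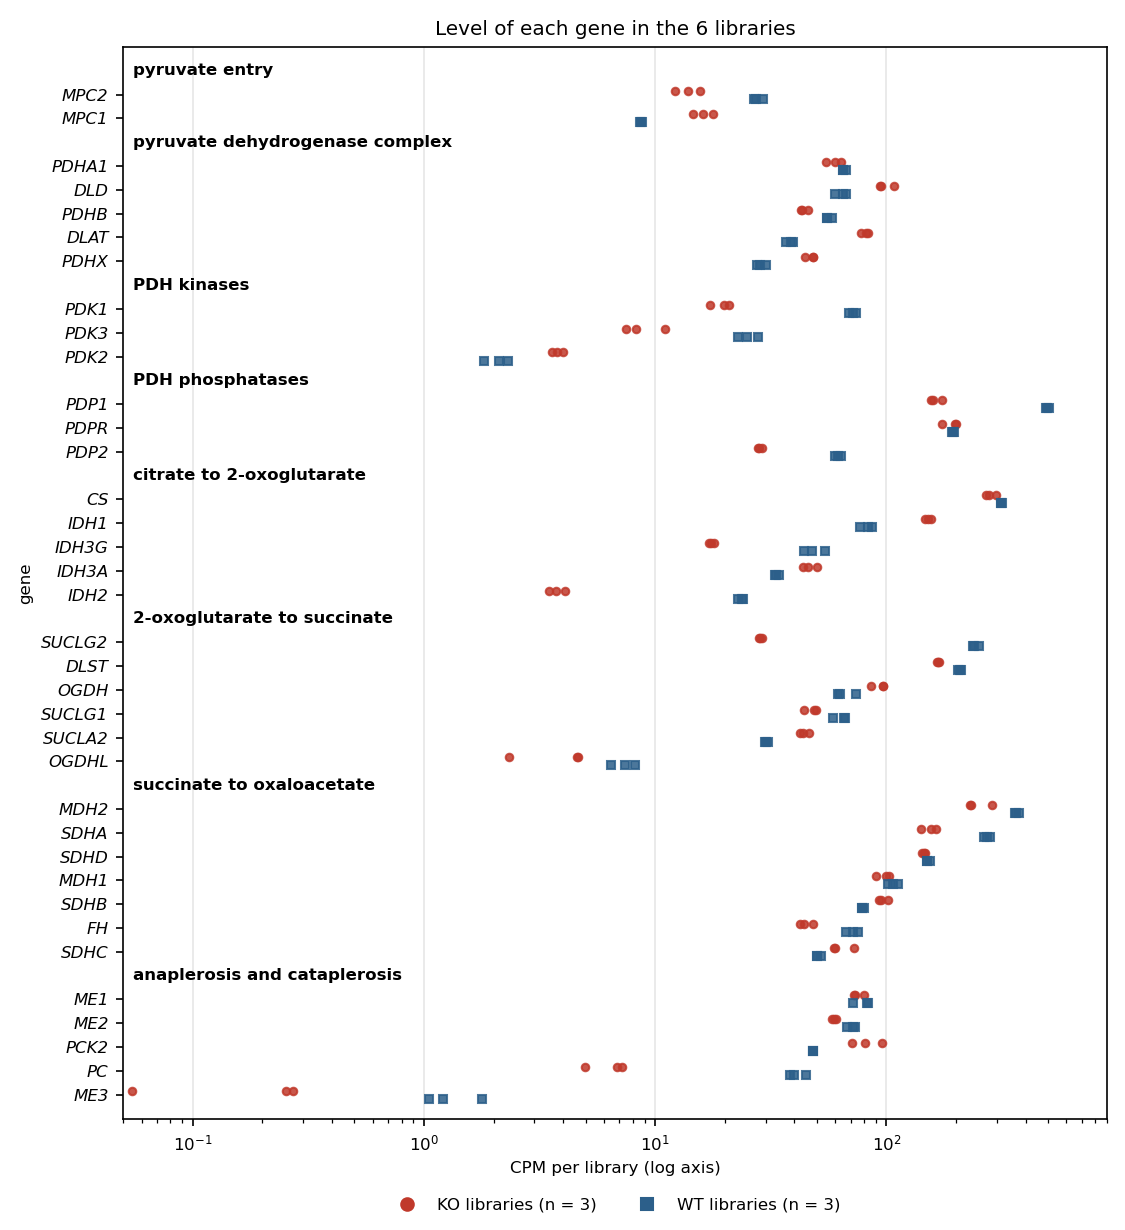
CPM of the 36 tested genes in each library on a log axis, ordered by role and by level in WT, with KO libraries (circles) above WT libraries (squares). The groups lie far apart for SUCLG2, IDH2, PC, PDK1 and PDP1, and they overlap for PDPR, MDH1 and ME1.

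Most kinases and phosphatases of the complex fell. Of 6 tested, 4 fell, 1 rose and 1 did not pass, where 36.3% of all tested genes were called lower and 40.0% higher. So few genes cannot be set apart from those shares by their count. PDK1, a kinase known as a target of hypoxia-inducible factor, had 19.9, 20.9 and 17.3 CPM in KO against 68.6, 73.9 and 71.8 CPM in WT. Its level in KO was 27.1% of that in WT (log2 -1.88, SE 0.0767, adjusted p = 1.35e-11). PDK3 had 7.45, 8.28 and 11.02 CPM in KO against 22.9, 27.8 and 25.02 CPM in WT, and it also fell (log2 -1.51, SE 0.134). Among the kinases, PDK2 was the one that rose, at 3.99, 3.56 and 3.75 CPM in KO and 2.31, 2.11 and 1.81 CPM in WT (log2 0.86, SE 0.197, adjusted p = 0.0011). PDK4 had no count in any library, which allows at most 0.0626 to 0.0945 CPM per library (3 counts). The 4 kinases summed to 8.53 FPKM in KO and 21.0 FPKM in WT. PDK1 made up 64.3%, 66.1% and 58.0% of that sum in KO and 80.8%, 79.9% and 81.2% in WT, while PDK2 made up 22.8%, 19.9% and 22.2% in KO and 4.81%, 4.03% and 3.63% in WT. Per length, PDK2 averaged 1.84 FPKM and PDK3 1.32 FPKM in KO, against 0.872 FPKM for PDK2 and 3.21 FPKM for PDK3 in WT.

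PDP1, the calcium-stimulated phosphatase that reactivates the complex, was among the most abundant transcripts of the list. It had 156, 160 and 175 CPM in KO and 488, 504 and 495 CPM in WT, a fall to 32.9% (log2 -1.60, SE 0.0556, adjusted p = 2.32e-12). PDP2, the other catalytic subunit, averaged 28.3 ± 0.616 CPM in KO and 61.9 ± 1.74 CPM in WT (log2 -1.13, SE 0.0623). For PDPR, the regulatory subunit, the groups overlapped, with 191 ± 14.3 CPM in KO and 194 ± 1.86 CPM in WT (adjusted p = 0.73). Its log2 fold change was -0.02 with TMM and 0.20, past the threshold, with library size alone.

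At the first steps of the cycle the isocitrate dehydrogenases diverged. IDH2, the mitochondrial NADP-dependent enzyme, had 4.09, 3.48 and 3.72 CPM in KO and 23.7, 22.8 and 24.0 CPM in WT. In KO it was 16.0% of its WT level (log2 -2.64, SE 0.105, adjusted p = 1.08e-11). IDH1, its cytosolic counterpart, had 147, 151 and 156 CPM in KO and 83.3, 86.8 and 76.8 CPM in WT, and it rose 1.84-fold (log2 0.88, SE 0.0573, adjusted p = 2.46e-09). Both changes were larger than the spread between libraries of a group. The ratio of IDH2 to IDH1 in FPKM was 0.0404, 0.0333 and 0.0345 in KO and 0.411, 0.380 and 0.453 in WT.

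The NAD-dependent isocitrate dehydrogenase, which serves the cycle itself, is built of several subunits, and those measured moved apart. IDH3A, the catalytic subunit, averaged 46.4 ± 3.24 CPM in KO and 33.6 ± 0.68 CPM in WT (log2 0.47, SE 0.0693). IDH3G, a regulatory subunit, had 17.5, 17.1 and 18.04 CPM in KO and 54.2, 47.6 and 44.1 CPM in WT (log2 -1.47, SE 0.0835, adjusted p = 5.03e-10). An exon of IDH3G overlaps one of SSR4 on the opposite strand, and the strand setting of the counts is not given. CS, citrate synthase, had 277, 268 and 299 CPM in KO and 316, 312 and 312 CPM in WT. That fall was small (log2 -0.15, SE 0.0525, adjusted p = 0.0149). It was not called without KO library 2 (adjusted p = 0.0584), and it turned to 0.07 with library size alone.

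The largest fall of the list was at succinyl-CoA ligase. SUCLG2 (chr3:67360460-67654612, minus strand), the beta subunit that forms GTP, had 28.1, 28.8 and 28.5 CPM in KO and 237, 251 and 238 CPM in WT. It was 8.50-fold lower in KO (log2 -3.09, SE 0.0548, adjusted p = 2.71e-15), with the 22nd smallest p of the 13249 genes tested. SUCLA2 (chr13:47942656-48001273, minus strand), the beta subunit that forms ATP, had 46.1, 42.2 and 43.4 CPM in KO and 29.8, 30.3 and 30.6 CPM in WT (log2 0.54, SE 0.0665, adjusted p = 3.18e-06). The alpha subunit that pairs with either, SUCLG1, averaged 47.3 ± 3.00 CPM in KO and 63.6 ± 4.13 CPM in WT (log2 -0.43, SE 0.0694). So the more abundant beta subunit differed between the groups: per length, SUCLG2 was 0.576, 0.646 and 0.621 times SUCLA2 in KO and 7.505, 7.84 and 7.35 times SUCLA2 in WT. SUCLG2 made up 36.6% to 39.3% of the FPKM of both beta subunits in KO and 88.0% to 88.7% in WT.

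The 2-oxoglutarate dehydrogenase complex acts just before that ligase. OGDH, its E1, had 86.1, 96.7 and 96.2 CPM in KO and 73.6, 63.0 and 62.0 CPM in WT (log2 0.49, SE 0.0729). DLST, its E2, averaged 167 ± 2.22 CPM in KO and 207 ± 2.98 CPM in WT (log2 -0.31, SE 0.0469), a fall that was not called with library size alone (log2 -0.08). OGDHL, an E1-like gene best known from brain, had 4.65, 4.60 and 2.33 CPM in KO and 7.41, 8.18 and 6.41 CPM in WT (log2 -0.91, SE 0.226). KO library 3 was the lowest for OGDHL, and the groups did not overlap.

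Succinate dehydrogenase, which is also complex II of the respiratory chain, had a lower level of its flavoprotein subunit, a higher level of 2 others and no call for SDHD. SDHA had 156, 141 and 165 CPM in KO and 280, 265 and 271 CPM in WT (log2 -0.82, SE 0.0587, adjusted p = 6.74e-09). The iron-sulfur subunit SDHB had 102, 92.8 and 94.9 CPM in KO and 78.2, 78.4 and 80.3 CPM in WT (log2 0.29, SE 0.0554). SDHC, a membrane anchor, averaged 63.8 ± 7.20 CPM in KO and 50.8 ± 1.13 CPM in WT (log2 0.33, SE 0.0751). Its partner SDHD averaged 145 ± 2.08 CPM in KO and 151 ± 3.18 CPM in WT, which did not pass the test (adjusted p = 0.226), and without KO library 3 it was called lower (log2 -0.10, adjusted p = 0.0407), with library size alone higher (log2 0.16). The ratio of SDHB to SDHA in FPKM was 1.85, 1.85 and 1.63 in KO and 0.788, 0.835 and 0.835 in WT. SDHA, SDHC and SDHD have annotated pseudogenes, so their reads are less certain.

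Further around the cycle, FH, fumarase, averaged 44.7 ± 2.98 CPM in KO and 71.4 ± 4.13 CPM in WT (log2 -0.68, SE 0.0682). MDH2, the mitochondrial malate dehydrogenase, was the most abundant gene of the list per length in both groups, at 125 FPKM in KO and 157 FPKM in WT. It had 232, 230 and 286 CPM in KO and 374, 359 and 365 CPM in WT (log2 -0.55, SE 0.0757, adjusted p = 2.23e-05). KO library 3 was the highest of the KO libraries for MDH2, still under every WT library. MDH1, the cytosolic enzyme, had 90.3, 99.2 and 103 CPM in KO and 113, 102 and 106 CPM in WT, where the groups overlapped (log2 -0.14, adjusted p = 0.0589). Without KO library 3 it was called lower (log2 -0.22, adjusted p = 0.000354), as it was without WT library 2 (adjusted p = 0.0439), with RLE scaling (adjusted p = 0.0439) and with no filter (adjusted p = 0.0394), and with library size alone its sign turned (log2 0.09).

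Among the genes that refill or drain the cycle, pyruvate carboxylase fell strongly. PC (chr11:66848420-66958383, minus strand) had 7.16, 4.96 and 6.83 CPM in KO and 45.0, 39.9 and 38.3 CPM in WT, a fall to 15.4% (log2 -2.70, SE 0.123, adjusted p = 2.04e-10). Per length it was 0.0848, 0.0682 and 0.0854 times PDHA1 in KO and 0.519, 0.462 and 0.429 times PDHA1 in WT. PC and PDHA1 belong to the alternative entries of pyruvate into the cycle. PCK2, the mitochondrial phosphoenolpyruvate carboxykinase, had 81.0, 71.3 and 95.8 CPM in KO and 48.1, 48.3 and 47.9 CPM in WT. It rose 1.72-fold (log2 0.78, SE 0.09, adjusted p = 5.48e-06).

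The malic enzymes changed little apart from the rarest. For ME1, the cytosolic enzyme that makes NADPH, the groups overlapped, with 75.2 ± 4.16 CPM in KO and 79.1 ± 6.57 CPM in WT (log2 -0.07, adjusted p = 0.336). It was called lower without KO library 3 (log2 -0.16, adjusted p = 0.0123) and had the opposite sign with library size alone (log2 0.15). ME2, the mitochondrial NAD-linked enzyme, averaged 59.2 ± 1.06 CPM in KO and 70.8 ± 2.74 CPM in WT (log2 -0.26, SE 0.0574), and with library size alone it was not called (log2 -0.04). ME3 had 13, 2 and 8 counts in KO and 46, 46 and 65 counts in WT, so its fall (log2 -2.76, SE 0.48) rests on few reads.

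**Figure D3:**
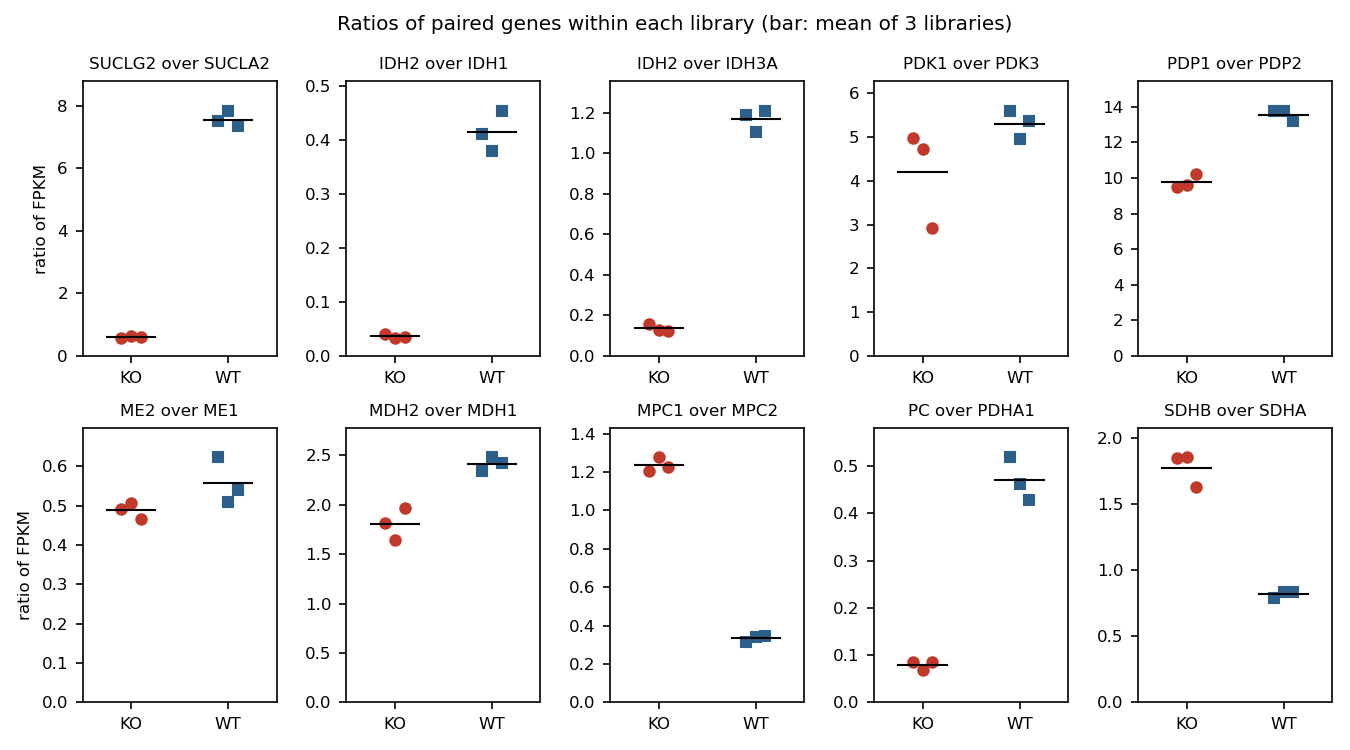
Ratio of the FPKM of 10 pairs of genes within each library, for KO (circles) and WT (squares), with the mean as a bar. KO lies below WT for 7 pairs and above it for MPC1 over MPC2 and SDHB over SDHA, and the groups overlap for PDK1 over PDK3.

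Of the 10 ratios compared, the KO and WT libraries did not overlap in 9. The exact 2-sided permutation test cannot give a p under 0.1 with 3 libraries against 3, and the 9 had this value (0.111 after Benjamini-Hochberg adjustment over the 10). By log2 difference, KO minus WT, the ratios of SUCLG2 to SUCLA2 (-3.62), IDH2 to IDH1 (-3.53), IDH2 to IDH3A (-3.11) and PC to PDHA1 (-2.57) differed most. MPC1 over MPC2 (1.89) and SDHB over SDHA (1.11) were higher in KO. The ratio of PDK1 to PDK3 was 4.99, 4.73 and 2.93 in KO and 5.60, 4.96 and 5.36 in WT, where the groups overlapped (p = 0.2, exact permutation test).

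Several of these genes share their start region with a neighbour on the other strand. The pairs described have a protein-coding gene that runs the other way and starts within 1000 bases, and in 5 of them both genes were tested. In 3 pairs the genes were called in opposite directions, in 1 pair only the IDH1 side was called, and in the SDHD pair neither was. Over all such pairs of tested coding genes, 257 of 1011 (25.4%) were called in opposite directions, and 5 pairs are too few to set these genes apart. The pairs were looked for after the values were known. STYXL1, which starts 47 bases from MDH2, had 29.1, 28.5 and 28.1 CPM in KO and 13.5, 11.8 and 10.6 CPM in WT, a rise (log2 1.25, SE 0.0939) where MDH2 fell. CCDC127, 26 bases from SDHA, averaged 20.8 ± 1.80 CPM in KO and 15.5 ± 1.67 CPM in WT (log2 0.43, SE 0.101), a rise where SDHA fell. The bases printed for MDH2 and SDHA are those between the annotated exons of each pair.

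In the pair of PDHX the rise was on the side of pyruvate metabolism. APIP, 670 bases from PDHX, averaged 17.2 ± 0.137 CPM in KO and 25.3 ± 2.18 CPM in WT, a fall (log2 -0.56, SE 0.0849) where PDHX rose. An exon of APIP overlaps one of PDHX, so some reads could belong to either. With library size alone the 3 pairs still pointed in opposite directions.

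**Figure D4:**
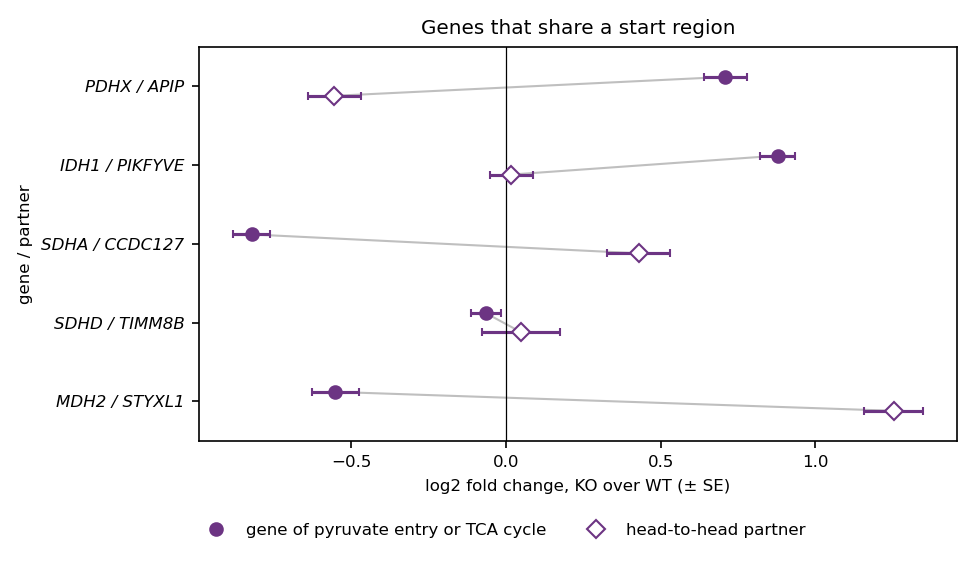
Log2 fold change, KO over WT, with its standard error for 5 genes of pyruvate entry or the TCA cycle (filled circles) and for the gene that starts beside each on the other strand (open diamonds). The symbols lie on opposite sides of 0, both past the threshold, in the pairs of PDHX, SDHA and MDH2, while neither gene of the SDHD pair passed it.

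Genes next to the cycle were taken from 9 lists with 63 measured members, of which 61 were tested. Of these 23 rose, 24 fell and 14 did not pass, 77.0% called against 76.4% of all tested genes. The list of other 2-oxoacid dehydrogenase complexes has 4 subunits, BCKDHA, BCKDHB, DBT and DHTKD1, and 2 regulators, the kinase BCKDK and the phosphatase PPM1K. All 6 fell, where 36.3% of all tested genes were called lower. The median log2 fold change of the 6 was -1.49, against 0.05 for all tested genes. The regulators fell least (log2 -0.93 for BCKDK and -0.76 for PPM1K). Among them DHTKD1, of lysine breakdown, averaged 13.2 ± 0.512 CPM in KO and 46.7 ± 1.21 CPM in WT. BCKDHA and BCKDHB, the E1 subunits for branched-chain amino acids, averaged 18.8 and 6.76 CPM in KO and 68.6 and 24.97 CPM in WT. DBT, the E2 core for branched-chain amino acids, averaged 17.6 CPM in KO and 39.2 CPM in WT. These complexes use the same DLD that rose. In propionate and GABA entry 4 of 5 tested genes fell and none was called higher. This list and the one before are small and were chosen with earlier results known, so their counts are a description only. MCEE, the methylmalonyl-CoA epimerase, averaged 0.842 ± 0.17 CPM in KO and 9.58 ± 1.66 CPM in WT. PCCA and PCCB, the propionyl-CoA carboxylase subunits, averaged 12.7 and 38.5 CPM in KO and 22.8 and 79.8 CPM in WT.

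The genes for glutamine and aspartate held large changes both ways, and the largest change around citrate export was a fall. Over all tested genes 40.0% were called higher and 36.3% lower. Of 7 genes for glutamine and aspartate, 4 rose, 1 fell and 2 did not pass. GOT1, the cytosolic aspartate aminotransferase, averaged 147 ± 16.4 CPM in KO and 68.3 ± 4.65 CPM in WT (log2 1.11). GLUD1, glutamate dehydrogenase, averaged 131 ± 4.08 CPM in KO and 379 ± 7.98 CPM in WT (log2 -1.53). The list of citrate and malate export has 8 genes, of which 4 rose, 3 fell and 1 did not pass. All 4 that rose are carriers of glutamate or of aspartate and glutamate. No gene of the list for citrate or malate itself was called higher. SLC25A1, the citrate carrier, averaged 22.9 ± 2.55 CPM in KO and 166 ± 7.46 CPM in WT (log2 -2.86), and ACLY, which splits exported citrate, 271 ± 4.43 CPM in KO and 492 ± 9.81 CPM in WT (log2 -0.86). SLC25A22, a glutamate carrier, averaged 87.1 ± 4.94 CPM in KO and 55.4 ± 1.52 CPM in WT (log2 0.65).

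The list of aconitase and 2-hydroxyglutarate genes held falls of ACO1 and D2HGDH. ACO1, the cytosolic aconitase that also acts as an iron regulatory protein, averaged 131 ± 19.4 CPM in KO and 216 ± 5.60 CPM in WT (log2 -0.72, SE 0.0889). D2HGDH, which oxidises D-2-hydroxyglutarate, averaged 9.12 ± 1.599 CPM in KO and 17.5 ± 1.03 CPM in WT (log2 -0.93, SE 0.122). Of the 5 genes of this list 2 rose, 2 fell and 1 did not pass, 80% called against 76.4% of all tested genes.

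**Figure D5:**
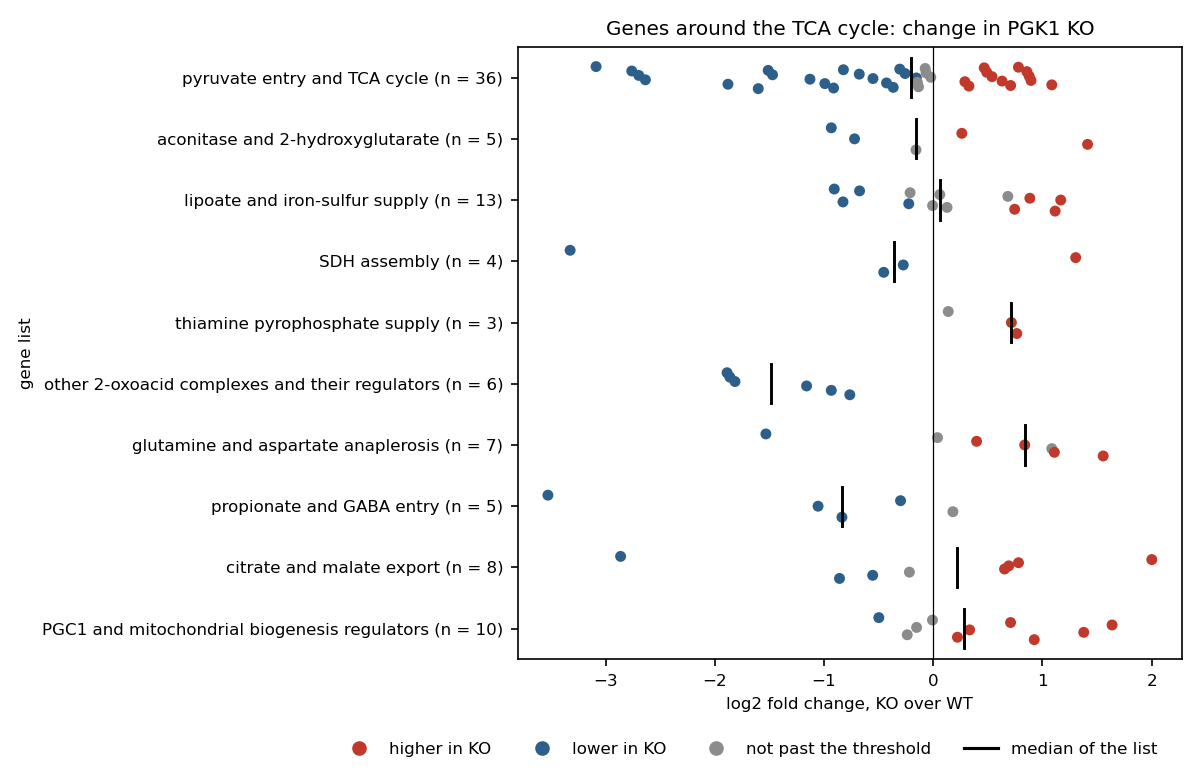
Log2 fold change, KO over WT, of each tested gene in the pyruvate and TCA list (top) and in the 9 neighbouring lists, with the median of each list as a bar. The list of other 2-oxoacid dehydrogenase complexes and their regulators lies wholly left of 0, with a median of -1.49, and the other lists reach both sides of 0 except the 3 genes of thiamine pyrophosphate supply.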

How the data were processed

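Whole-number counts per gene and FPKM for the same 20610 symbols were deposited by the authors. Tools named in the submitters' processing notes, with no version, are HISAT and fastp, with the build hg38. No source used here gives the counting tool, annotation or strand setting. The deposited FPKM values equal the count divided by library total and a fixed gene length (relative tolerance 1e-06) for all 17521 genes with a read, so they were used only for levels between genes and ratios within a library.

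KO was compared with WT on the counts by edgeR 4.0.16 (R 4.3.3) and its robust quasi-likelihood test after filterByExpr and TMM scaling, with no covariate. Benjamini-Hochberg adjustment covered 13249 genes, and the threshold was 0.05. The SE is the absolute log2 fold change divided by the root of F. The common biological coefficient of variation was 0.0825. The code was tested on simulated data. Floors of 3 counts cover counting error only. Chromosome 20 genes held 0.00824% of counts. Gene positions and promoters are RefSeq GRCh38.p14, and exons, pseudogenes and neighbours GENCODE 29. GENCODE lists pseudogenes named after 9 of the 37 genes, and for 14 an exon overlaps one of another coding gene, so their reads are less certain.

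Libraries of a group correlated at 0.992 to 0.997 (Pearson, log2 CPM) and differed by more than sampling noise, with a chi-square per degree of freedom of at least 3.69. All carry the same batch label. Alternatives were scaling by library size alone, by RLE or by upper quartile, no filter or 1 CPM or more in 3 libraries, DESeq2 1.42.0, limma 3.58.1 on log2(FPKM + 1) or log2(FPKM + 0.1), each library left out, the replicate number as a block, and no chromosome 20 genes. Every gene of the list is reported. From each neighbouring list up to 3 genes with the smallest p were to be named, plus ACO1. Some of these genes and 1 neighbouring pair are not reported here. The genes, lists and pairs were chosen with earlier results of these data known.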

Additional observations from a re-analysis of the deposited data

How the results depend on the processing

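All counts of genes higher or lower (the 37 genes, the neighbouring lists, all tested genes) stayed within 1.5 times of the value reported under each alternative run, and so did the count of ratios without overlap. Genes of the list called higher numbered 12 to 14 and genes called lower 16 to 23. Leaving out one library gave 12 higher each time and 18 to 23 lower, the most without KO library 3. The share of called genes in the whole table that were higher was 52.4% with TMM and 63.6% with library size alone. Sign changes came with settings whose log2 fold changes shift up at the median, apart from that of PDPR without KO library 1. With library size alone the log2 fold change was 0.0764 for PDHA1, 0.199 for PDPR, 0.0669 for CS, 0.158 for SDHD, 0.0870 for MDH1 and 0.15 for ME1. On log2(FPKM + 1) it was 0.0697 for PDHA1, 0.19 for PDPR, 0.0658 for CS, 0.16 for SDHD, 0.0858 for MDH1 and 0.15 for ME1. On log2(FPKM + 0.1) it was 0.0726 for PDHA1, 0.20 for PDPR, 0.0664 for CS, 0.16 for SDHD, 0.0870 for MDH1 and 0.15 for ME1. PDPR was also at 0.0278 with upper-quartile scaling and 0.0225 without KO library 1. CS was not called with upper-quartile scaling (log2 -0.10) or without KO library 2 (log2 -0.14), and DLST and ME2 were not called with library size alone or on FPKM. Over all alternatives adjusted p ran from 0.00358 to 0.303 for PDHA1, from 0.000354 to 0.223 for MDH1 and from 1.72e-06 to 0.167 for CS. ME3 was not tested with at least 1 CPM in 3 libraries. The cause of these moves beyond the shift in scaling was not tested.

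Equal replicate numbers did not pair the libraries: deviations from the group means correlated at -0.0101, 0.0135 and -0.0283 between same-numbered libraries. With a replicate block 12 genes of the list were higher and 20 lower, PDHA1 being the added call (adjusted p = 0.04997).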

Other observations

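Genes that supply cofactors to these enzymes moved both ways. Of 13 genes of lipoate and iron-sulfur supply, 4 rose, 4 fell and 5 did not pass the edgeR test. The share called was 61.5%, against 76.4% of all tested genes. The falls were MECR (log2 -0.91), NFU1 (log2 -0.83), ISCA2 (log2 -0.67) and LIAS (log2 -0.22). ISCU, MCAT and IBA57, described next for their smallest p in the list, were rises. ISCU, the scaffold for iron-sulfur clusters, averaged 94.4 ± 4.66 CPM in KO and 51.1 ± 0.478 CPM in WT (log2 0.88, SE 0.0579), MCAT, of mitochondrial fatty acid synthesis, 22.1 ± 1.71 CPM in KO and 9.85 ± 0.595 CPM in WT, and IBA57, a late cluster assembly factor, 15.7 ± 0.864 CPM in KO and 7.22 ± 0.236 CPM in WT. The assembly factors of succinate dehydrogenase split: SDHAF2, which puts flavin into SDHA, averaged 85.2 ± 4.80 CPM in KO and 34.5 ± 2.46 CPM in WT (log2 1.30, SE 0.0696). SDHAF4, which also binds SDHA, averaged 0.525 ± 0.102 CPM in KO and 5.35 ± 0.422 CPM in WT (log2 -3.33, SE 0.232). SDHAF3 averaged 8.78 ± 0.564 CPM in KO and 12.03 ± 0.706 CPM in WT. Of the thiamine genes, the transporter SLC19A2 averaged 35.5 ± 1.07 CPM in KO and 21.6 ± 0.559 CPM in WT, a rise (log2 0.72, SE 0.0706).

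Of 10 regulators of mitochondrial biogenesis, 6 were called higher, 1 lower and 3 not, where 40.0% of all tested genes were called higher and 36.3% lower. The share called was 70.0% in the list and 76.4% of all tested genes, and the median log2 fold change was 0.28 in the list and 0.05 over all. TFAM, which packages mitochondrial DNA and starts its transcription, averaged 193 ± 4.89 CPM in KO and 61.9 ± 2.81 CPM in WT (log2 1.64, SE 0.0541). TFB2M, a mitochondrial transcription factor, averaged 93.9 ± 2.25 CPM in KO and 36.1 ± 1.52 CPM in WT, and ESRRA, a nuclear receptor that drives oxidative genes, 183 ± 8.44 CPM in KO and 96.4 ± 4.55 CPM in WT. PPARGC1A, the coactivator PGC-1 alpha, chosen after its values were seen as the one gene of the list that fell, averaged 3.01 ± 0.48 CPM in KO and 4.27 ± 0.582 CPM in WT (log2 -0.50, SE 0.192).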
